A study of Mus musculus with 26 samples.

Results

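Sα, the switch (S) region upstream of the Cα constant gene, is the acceptor that B cells use to switch to IgA. All junctions mapped to mouse chr12:114472000-114503999 (mm9), in either orientation, were taken as joins to Sα, and there were 2568 of them among 777800 junctions in 26 CSR-HTGTS libraries. CSR-HTGTS sequences outwards from a fixed primer, the bait, and records where each broken bait end has been joined. Most of the 616341 junctions within the IgH locus went to Sγ1 (432154) and 40301 went to Sε, so that Sα was a minor acceptor.

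All libraries came from genomic DNA of CD43-negative splenic B cells of 129Sv mice aged 6 to 8 weeks and activated for 96 h. In homozygous A150 mice a cassette of a pre-rearranged VDJ exon and Eµ stands in place of the Iγ3 promoter, and most B cells mature with IgG3 in place of IgM, of which little is made. The wild-type (WT) controls carry the unmodified locus, in which Sµ is the usual donor. Cells received either anti-CD40+IL4 (25 ng/ml IL4) or anti-CD40+TGF-β, which also held 10 ng/ml IL4, 5 ng/ml IL5 and 5 ng/ml BLyS next to 2 ng/ml TGF-β. Anti-CD40 was at 1 µg/ml in both. Each genotype was read with a bait upstream of Sµ and with a bait upstream of Sγ3. Libraries with anti-CD40+IL4 numbered 3 for WT and 4 for A150 from Sµ, and 3 for each genotype from Sγ3. Libraries with anti-CD40+TGF-β numbered 3 for each genotype from Sµ, and 3 for WT and 4 for A150 from Sγ3. The study's legends count independent mice for these assays, but the labels do not tie each library to a mouse. The p-values therefore measure the spread between libraries, which may be technical in part.

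In class switch recombination, activation-induced cytidine deaminase (AID) deaminates cytosines in transcribed S regions, with AGCT as a preferred motif, and the resulting breaks in a donor and an acceptor S region are joined. Joining in the deletional orientation removes the DNA in between and yields a switched heavy chain gene, whereas joining in the inverted orientation does not. TGF-β induces transcription through Sα from its Iα promoter, and IL4 induces that of Sγ1 and Sε. Cα is the last constant gene of the locus, and IgH is transcribed from the minus strand, so the upstream end of Sα has the higher coordinate.

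Nearly all Sα joins made with anti-CD40+TGF-β fell in a core of 4.5 kb, chr12:114499000-114503499. The core was set on the pooled Sα joins of all libraries, 2418 of 2568 of them from anti-CD40+TGF-β, so it follows where those joins lay. The sense strand of this core was rebuilt from the gap-free prey parts of 1414 Sα reads, which covered 4405 of its 4500 bases with 0 conflicting positions. It held 174 copies of AGCT, a motif that reads the same on both strands, and 15.8% of the rebuilt bases lay in one. Stretches of 120 bases are shown for the most recurrent deletional end (chr12:114500150-114500269, minus strand), the most recurrent inversional end (chr12:114502095-114502214) and the part densest in the motif (chr12:114500883-114501002), with AGCT in capitals.
Most recurrent deletion end: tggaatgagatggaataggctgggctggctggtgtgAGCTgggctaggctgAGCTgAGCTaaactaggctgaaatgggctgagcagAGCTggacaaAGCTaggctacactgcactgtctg
Most recurrent inversion end: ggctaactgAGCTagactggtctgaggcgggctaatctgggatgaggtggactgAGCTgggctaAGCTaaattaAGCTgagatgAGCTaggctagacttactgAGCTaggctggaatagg
Densest in AGCT: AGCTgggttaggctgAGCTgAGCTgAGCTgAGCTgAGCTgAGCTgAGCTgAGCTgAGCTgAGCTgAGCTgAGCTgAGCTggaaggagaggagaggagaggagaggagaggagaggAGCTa
These stretches held 5, 6 and 15 copies. AGCT occurred in 93.6% of all fully rebuilt 120-base windows of the core, with a median of 5 copies, so the first stretch was ordinary in this respect. The position at the centre of the first stretch, 114500210, was the prey end of 10 deletional joins in 8 libraries, and 154 deletions and 8 inversions ended within the stretch. In the second stretch 42 deletions and 100 inversions ended, and its central position 114502155 was used by 6 inversions in 3 libraries.

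The bait ends joined to Sα lay close to each bait, which the assay sets, since a read starts at the bait primer and must also reach Sα. The 150-base stretches that held most of these ends are shown as the commonest base at each position of the Sα reads (Sµ bait, chr12:114668745-114668894; Sγ3 bait, chr12:114606179-114606328; both minus strand), again with AGCT in capitals.
Sµ bait: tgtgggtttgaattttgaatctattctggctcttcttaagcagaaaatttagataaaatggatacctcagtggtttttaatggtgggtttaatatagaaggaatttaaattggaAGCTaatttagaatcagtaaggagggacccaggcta
Sγ3 bait: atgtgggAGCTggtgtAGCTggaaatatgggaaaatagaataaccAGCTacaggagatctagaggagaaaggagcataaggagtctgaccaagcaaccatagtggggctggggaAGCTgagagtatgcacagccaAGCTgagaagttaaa
The Sµ stretch held 676 of the 773 bait ends joined to Sα and 1 AGCT. The Sγ3 stretch held 1571 of 1795 bait ends and 5 AGCT.

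Single joins from A150 cells with anti-CD40+TGF-β show what was scored. In the direct joins the capitals are the Sα bases, and the remaining letters come from the bait.
Sµ bait, direct deletion: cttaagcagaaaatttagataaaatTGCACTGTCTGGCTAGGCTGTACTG
Sµ bait, direct inversion: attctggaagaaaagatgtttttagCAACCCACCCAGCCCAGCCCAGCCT
Sγ3 bait, direct deletion: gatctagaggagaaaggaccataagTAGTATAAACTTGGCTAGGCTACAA
Sγ3 bait, direct inversion: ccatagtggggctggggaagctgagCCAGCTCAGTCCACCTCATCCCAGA
In the next pair the capitals are bases that aligned to both the bait and Sα, the longest such overlaps among deletions of each bait with a prey alignment free of gaps and mismatches. In the Sµ join, 1 overlapping base differs from the commonest bait base. In the Sγ3 join, the overlap and the bases before it match the bait stretch once 1 bait base is skipped.
Sµ bait, longest overlap: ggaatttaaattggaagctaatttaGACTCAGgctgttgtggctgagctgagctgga
Sγ3 bait, longest overlap: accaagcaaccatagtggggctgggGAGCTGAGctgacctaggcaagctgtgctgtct
In the last pair the capitals are bases inserted between the bait and Sα that aligned to neither.
Sµ bait, insertion: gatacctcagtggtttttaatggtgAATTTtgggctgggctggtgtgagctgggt
Sγ3 bait, insertion: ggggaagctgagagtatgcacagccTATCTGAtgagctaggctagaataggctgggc
The inverted joins read into the C-rich strand of Sα and the deletional joins into the G-rich strand.

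Sα joins were rare with anti-CD40+IL4 and frequent with anti-CD40+TGF-β, for both baits in A150 cells and for the Sµ bait in WT cells. In A150 cells the Sµ bait gave 9, 7, 8 and 21 Sα joins with anti-CD40+IL4 (0.0363%, 0.0194%, 0.0419% and 0.102% of the IgH junctions of each library). With anti-CD40+TGF-β it gave 216, 188 and 137 joins (2.08%, 1.76% and 1.66%). The 2 sets of libraries did not overlap. The mean share was 0.0499% ± 0.0360 (SD, n = 4) with anti-CD40+IL4 and 1.83% ± 0.223 (SD, n = 3) with anti-CD40+TGF-β, a 36.8-fold difference (two-sided exact permutation p = 0.0571, adjusted 0.15 over 9 comparisons). Without the library of 21 joins the difference was 56.4-fold, and over all junctions of the libraries it was 23.0-fold. That p is the smallest that 3 against 4 libraries allow, and 3 against 3 cannot go below 0.1, so no such comparison of 2 groups could pass 0.05 with the smaller tail doubled.

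The Sγ3 bait in A150 cells gave 26, 37 and 30 Sα joins with anti-CD40+IL4 (0.0376%, 0.0383% and 0.0355%). With anti-CD40+TGF-β it gave 491, 453, 321 and 435 joins (1.29%, 0.977%, 0.914% and 0.960%). The means were 0.0371% ± 0.00146 (SD, n = 3) and 1.03% ± 0.171 (SD, n = 4), a 27.9-fold difference without overlap (exact permutation p = 0.0571, adjusted 0.15). WT cells read with the Sµ bait gave 5, 2 and 5 joins (0.0577%, 0.00943% and 0.0208%) and 47, 49 and 79 joins (1.02%, 0.919% and 1.10%). The difference was 34.6-fold (exact permutation p = 0.1). It was 67.1-fold without the first anti-CD40+IL4 library and 16.3-fold over all junctions. Within the core the folds were 77.1 for A150 Sµ, 48.4 for A150 Sγ3 and 56.6 for WT Sµ, a rise that is in part built in by how the core was set. In bulk DNA, more switching cells and more switching per cell cannot be told apart.

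On the ratio scale, the difference between the stimulations was not shown to differ between baits or genotypes with all libraries. In A150 cells the log2 fold of the Sγ3 bait minus that of the Sµ bait was -0.40 (exact permutation of the bait labels within each stimulation, p = 0.669, adjusted 0.906). For the Sµ bait, A150 minus WT was 0.09 (exact permutation p = 0.906). Both rested on the few joins of the anti-CD40+IL4 libraries. Without the A150 Sµ library of 21 joins the log2 difference between baits was -1.02 (exact permutation p = 0.0229). As a difference of percentage points, with all libraries, the change of the Sγ3 bait minus that of the Sµ bait was -0.787 (exact permutation p = 0.0376). Without 1 library in turn, the log2 difference between genotypes ran from -0.87, without the first WT anti-CD40+IL4 library, to 0.71.

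With anti-CD40+TGF-β, Sα took a higher share of the IgH junctions in A150 cells read from Sµ than in A150 cells read from Sγ3 or WT cells read from Sµ. The 3 A150 libraries (1.66% to 2.08%) lay above the 3 WT libraries (0.919% to 1.10%), a 1.81-fold difference (exact permutation p = 0.1). They also lay above the 4 A150 libraries read from Sγ3 (0.914% to 1.29%), by 0.800 percentage points (exact permutation p = 0.0571, adjusted 0.15). The shares from Sγ3 in A150 and from Sµ in WT overlapped, and their order depended on the denominator. With anti-CD40+IL4, the libraries of all 3 groups overlapped.

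These shares depend on how many junctions lay in IgH at all. With anti-CD40+TGF-β, 42.4% to 44.7% of all junctions were in IgH in WT and 53.3% to 63.5% in A150 with the Sµ bait, and 75.6% to 80.4% in A150 with the Sγ3 bait. Over all junctions of the library in place of those in IgH, the difference between the A150 baits was -0.241 percentage points. The part of the IgH fraction in these differences was not tested. The tables also mark rows of low mapping quality, and all the marked IgH rows lay in Sγ1, where they made up 84.0% to 92.4% of the joins of each group outside WT Sγ3. Leaving them out shrank the denominator and raised the shares, and the difference between the A150 baits became -3.23 points (exact permutation p = 0.0571). That between A150 and WT became 1.30 points (exact permutation p = 0.1), and the differences between stimulations became 5.32, 2.14 and 4.03 points for A150 Sµ, A150 Sγ3 and WT Sµ, all in the same direction as before. Between A150 read from Sγ3 and WT read from Sµ, the shares with anti-CD40+TGF-β did not overlap with either other denominator and had opposite orders. Over all junctions they were 0.717% to 0.974% in A150 and 0.390% to 0.494% in WT, and without the marked rows 1.97% to 2.70% and 3.78% to 4.55%, a difference that was not tested.

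The WT Sγ3 libraries held few IgH junctions, 31 to 102 each among 2883 to 12151 junctions. Only 1.97% to 2.71% of their junctions with anti-CD40+IL4 and 0.255% to 0.361% with anti-CD40+TGF-β lay in IgH. With anti-CD40+IL4 none of 256 IgH junctions of the 3 libraries lay in Sα, which allows a share of up to 1.17% (3 junctions, counting error only). With anti-CD40+TGF-β there were 2 Sα joins among 106 (1.89%, 95% Wilson interval 0.519% to 6.62%), both deletional. As a share of IgH junctions, a difference from A150 was not detectable at this depth. Over all junctions, Sα joins made up 2 of 34155 in WT (0.00586%, 95% Wilson interval 0.00161% to 0.0214%) and 1700 of 210884 in A150 (0.806%, 0.769% to 0.845%), a mean difference of 0.800 percentage points without overlap (exact permutation p = 0.0571).

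**Figure D1:**
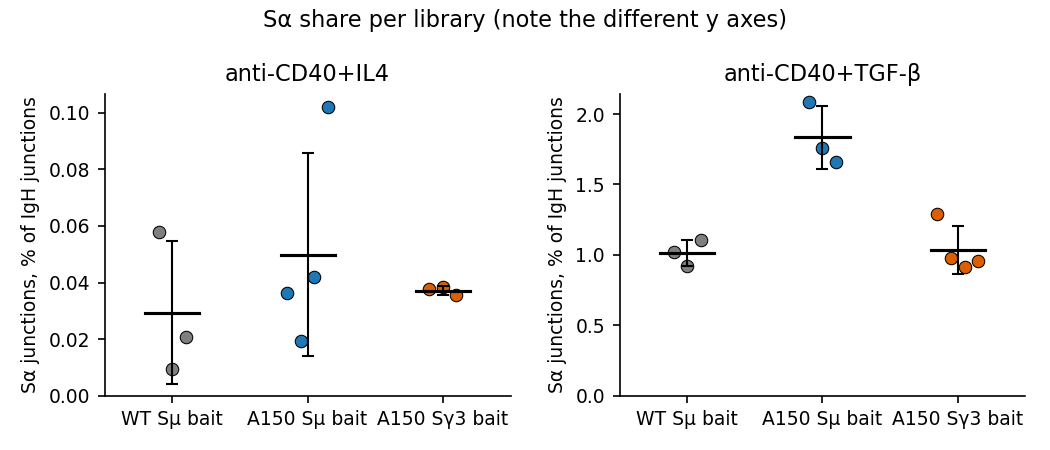
Sα junctions as a percentage of the IgH junctions of each library (points), with the group mean (line) and SD (bar), for anti-CD40+IL4 on the left and anti-CD40+TGF-β on the right. The WT Sγ3 libraries are not drawn and the vertical scales differ: no drawn library exceeds 0.102% on the left and none lies below 0.914% on the right.

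The 2 baits differed in the orientation of their Sα joins. With anti-CD40+TGF-β, deletions made up 85.2%, 87.2% and 86.9% of the Sα joins of the A150 Sµ libraries (86.4% ± 1.09, SD, n = 3). In the A150 Sγ3 libraries they made up 59.3%, 54.3%, 54.8% and 57.0% (56.4% ± 2.27, SD, n = 4). Sα joins from Sγ3 were therefore close to evenly split, with 1.30 ± 0.122 deletions per inversion against 6.40 ± 0.572 from Sµ. The difference of -30.1 percentage points was far larger than either SD, and its exact permutation p of 0.0571 was again the smallest possible (adjusted 0.143 over 5 comparisons). In WT cells read from Sµ, deletions made up 93.6%, 87.8% and 91.1% (90.8% ± 2.94, SD, n = 3). All 3 values were above those of A150 Sµ, by 4.41 points on average (exact permutation p = 0.1).

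Set against all IgH junctions, deletional Sα joins were the class that was lower from Sγ3, and inversional joins were higher. Inversional joins to Sα made up 0.449% ± 0.0527 (SD, n = 4) from Sγ3 and 0.250% ± 0.0507 (SD, n = 3) from Sµ in A150 cells. From Sµ in WT cells they made up 0.0918% ± 0.0244 (SD, n = 3).

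With anti-CD40+IL4 only A150 Sγ3 had 10 or more Sα joins in every library. Deletions made up 61.5%, 67.6% and 70.0% there (66.4% ± 4.36, SD, n = 3). All were above the anti-CD40+TGF-β libraries, which differed by -10.02 points (exact permutation p = 0.0571, adjusted 0.143). Within the core, where 2 of the 3 anti-CD40+IL4 libraries had enough joins, the difference was -3.50 points (exact permutation p = 0.267). In the downstream part of the core alone, where only 1 of the 3 anti-CD40+IL4 libraries had enough joins, the sign turned (5.96 points higher with anti-CD40+TGF-β). One A150 Sµ library with anti-CD40+IL4 had enough joins, and 90.5% of its 21 were deletions.

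Within the same libraries, the deletional percentage from Sγ3 was lower at Sα than at Sε and Sγ1, the 2 acceptors compared. With anti-CD40+TGF-β the Sγ3 bait gave 83.8% deletions at Sγ1 and 70.4% at Sε. Over the 7 A150 Sγ3 libraries of both stimulations, the deletional percentage at Sα was below that at Sε in 7 of 7, by a mean difference of -12.9 points (-17.1 to -8.82), and below that at Sγ1 in 7 of 7, by a mean difference of -24.1 points (-28.9 to -16.2). Both gave an exact sign-flip p of 0.0156, the smallest for 7 libraries, and 0.125 after adjustment over 16 tests. With the 4 anti-CD40+TGF-β libraries alone the differences were -14.1 and -27.5 points. Without the Sγ1 rows marked for low mapping quality the difference from Sγ1 was -7.93 points (exact sign-flip p = 0.0156). From Sµ the difference from Sε was -5.36 points, in 4 of 4 libraries (exact sign-flip p = 0.125, adjusted 0.333). Against Sγ1 it was 0.70 points in the other direction, with 3 of 4 libraries higher at Sα (exact sign-flip p = 0.625, adjusted 0.833), and without the marked rows it was 11.2 points (exact sign-flip p = 0.125). Bait alignments from Sγ3 had similar means of the library medians for Sα and Sγ1 joins (80.9 and 80.7 bp). Within single libraries, though, Sα minus Sγ1 ran from -25 to 19.5 bp. For Sε joins the bait alignments were longer on average (92.1 bp). The part of bait length in the comparisons with Sε and Sγ1 was not tested.

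Orientation also varied along Sα. Upstream of 114501500 (the upstream 2 kb of the core), deletions made up 39.3% ± 1.10 (SD, n = 4) of the A150 Sγ3 joins with anti-CD40+TGF-β, so that inversions were the majority in each of the 4 libraries. In the downstream 2.5 kb they made up 83.7% ± 3.50. From Sµ the corresponding values were 69.9% ± 4.85 and 97.1% ± 0.818 in A150 (SD, n = 3), and 84.2% ± 6.57 and 97.7% ± 3.98 in WT (SD, n = 3). In both parts every A150 Sγ3 library was below every A150 Sµ library.

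**Figure D2:**
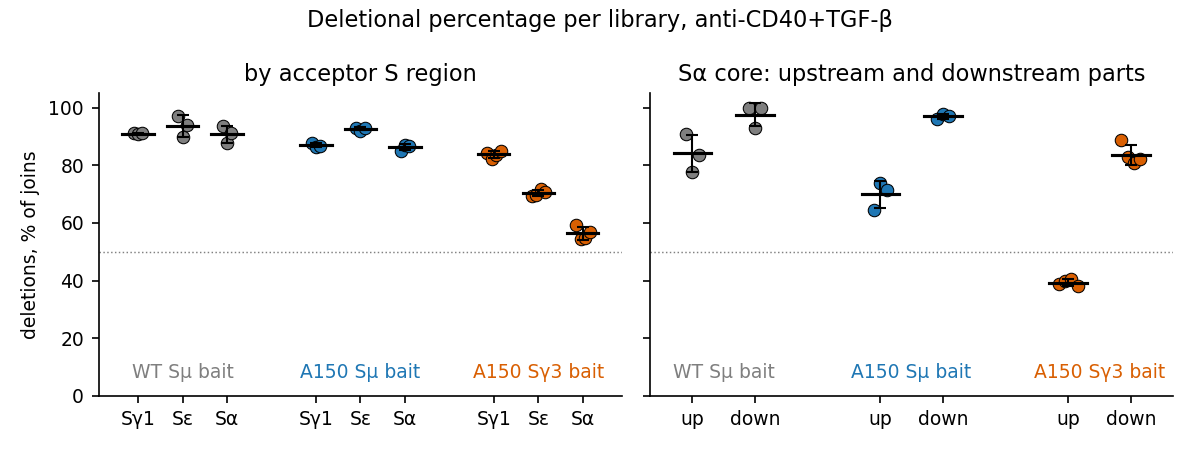
Percentage of joins in the deletional orientation in each library with anti-CD40+TGF-β (points, with mean and SD; the dotted line is at 50), at Sγ1, Sε and Sα on the left and in the upstream 2 kb and downstream 2.5 kb of the Sα core on the right. From Sγ3 the percentage is lowest at Sα among the 3 regions drawn (mean 56.4%), and within the core it is lower in the upstream part (mean 39.3%).

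Joins were spread over the core, and the 3 fullest bins of 500 bp over all libraries and both stimulations were those starting at 114502000, 114501500 and 114500000. Their order differed between baits. With anti-CD40+TGF-β they held 381, 344 and 223 joins in A150 cells read from Sγ3, which gave 1700 of all 2568 Sα joins. In A150 cells read from Sµ they held 77, 88 and 139 joins, and in WT cells read from Sµ 23, 35 and 47, so that 114500000 was the fullest of the 3 from Sµ and the least full from Sγ3. In each of these groups the bins between them, at 114501000 and 114500500, held fewer joins (200 and 111, 47 and 30, and 21 and 7). The joins at 114500000 were nearly all deletional in each group (204 of 223, 136 of 139 and 45 of 47). At 114502000 inversions were the majority from Sγ3 (258 of 381), whereas deletions were the majority from Sµ (49 of 77 in A150 and 18 of 23 in WT).

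In A150 cells read from Sγ3 the deletional percentage over these bins, with libraries pooled, went from 91.5% (95% Wilson interval 87.1% to 94.5%, 223 joins) at 114500000 to 53.2% (47.9% to 58.4%, 344 joins) at 114501500. It was 32.3% (27.8% to 37.1%, 381 joins) at 114502000. From Sµ it was 97.8% (139 joins), 81.8% (88 joins) and 63.6% (77 joins).

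Deletional and inversional joins of a library lay at different places. From Sµ in A150 with anti-CD40+TGF-β, the median deletional join lay 2930.5 bp ± 378 downstream of the upstream edge of the core and the median inversional join 1368.5 bp ± 98.4 (SD, n = 3). From Sγ3 these were 2200 bp ± 153 and 1358.2 bp ± 43.6 (SD, n = 4). Over the 6 A150 Sγ3 libraries of both stimulations with at least 10 joins of each orientation, deletions lay downstream of inversions in 6 of 6. The mean difference in coordinate was -1069.9 bp (exact sign-flip p = 0.0313, adjusted 0.0938 over 6 tests). Over the 3 Sµ libraries the mean difference was -1562 bp, in the same direction in 3 of 3 (exact sign-flip p = 0.25, the smallest possible).

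Taking both orientations, the median Sα join with anti-CD40+TGF-β lay 2844.5, 2058 and 2545 bp from the upstream edge in the A150 Sµ libraries. In the A150 Sγ3 libraries it lay at 1729, 1628, 1673 and 1779 bp. The Sγ3 joins thus lay 780.25 bp further upstream, without overlap (exact permutation p = 0.0571, adjusted 0.143). Among inversions alone the baits differed by 10.2 bp. The WT Sµ medians of 2059, 3179 and 2007 bp overlapped those of A150 Sµ (difference in means 67.5 bp, exact permutation p = 0.9).

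**Figure D3:**
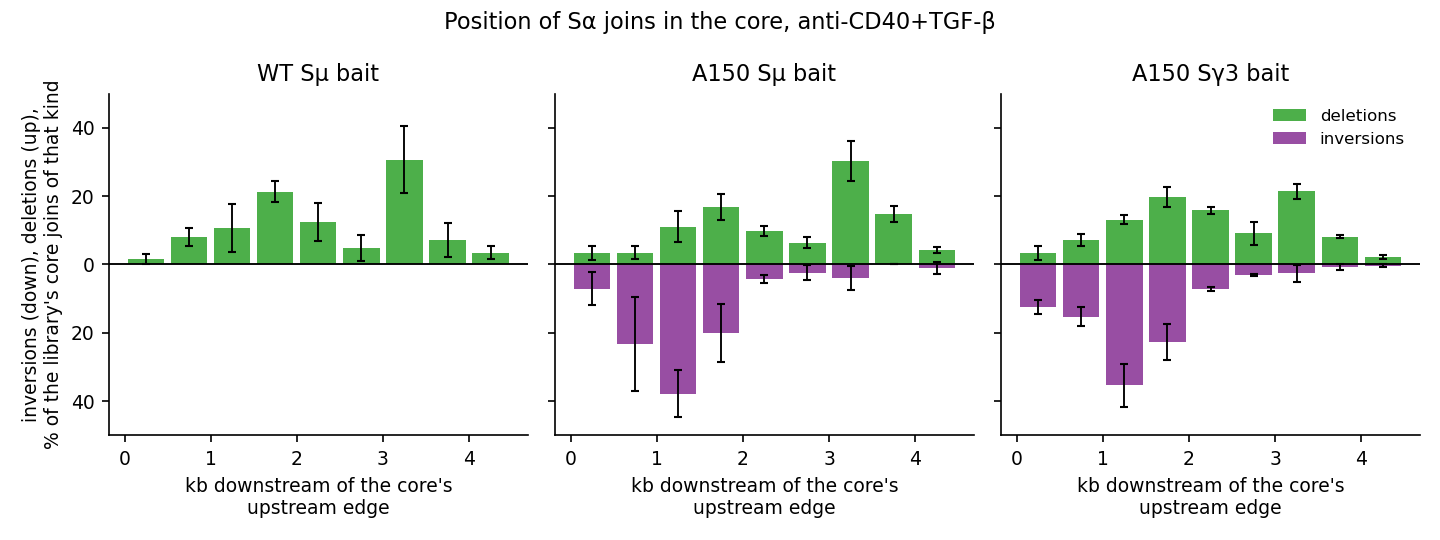
Distribution of deletional (up) and inversional (down) joins over the Sα core in bins of 500 bp with anti-CD40+TGF-β, as the mean percentage of a library's core joins of that orientation with SD over libraries with 10 or more of them (no WT library had 10 inversions). Inversions peak 1 to 1.5 kb below the upstream edge for both A150 baits, and deletions have their highest bar at 3 to 3.5 kb.

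A part of the joins with anti-CD40+IL4 lay outside the core, which was set almost wholly by anti-CD40+TGF-β joins, so that a higher share of the latter within it is built in. In libraries with at least 10 Sα joins the core held 94.1% to 98.8% of them with anti-CD40+TGF-β and 26.7% to 86.5% with anti-CD40+IL4. In A150 cells with anti-CD40+IL4, 39 of 93 joins from Sγ3 and 25 of 45 from Sµ were outside it, and 33 and 19 of these lay over 10 kb downstream of it. With anti-CD40+TGF-β only 35 of 1700 and 25 of 541 were outside, 2 from each bait at that distance. Almost all of the outlying positions with anti-CD40+IL4 were used once (37 positions from Sγ3 and 23 from Sµ).

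The comparison of positions between stimulations depended on this spread and on the third A150 Sγ3 library with anti-CD40+IL4. The A150 Sγ3 medians with anti-CD40+IL4 were 2531.5, 2187 and 18555.5 bp from the upstream edge, against 1628 to 1779 bp with anti-CD40+TGF-β. The mean difference of 6055.8 bp (exact permutation p = 0.0571, adjusted 0.143) was 657 bp without the third library. It was 167 bp within the core, where that library also dropped out with 8 joins.

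Junction bases lay in AGCT more often than the motif's share of the sequence. In A150 cells with anti-CD40+TGF-β, the prey base at the junction lay in an AGCT in 27.9% ± 3.89 (SD, n = 3) of core joins from Sµ and 25.1% ± 1.76 (SD, n = 4) from Sγ3. The motif covered 16.4% and 16.6% of the bases of the same bins, weighted by where the joins lay, and each of these 7 libraries was above its own value. In WT from Sµ the share was 17.8%, 40.4% and 31.2%, and the first of these libraries (45 core joins) was just below its bins at 17.8%. Across bins, though, the bins densest in the motif were not the fullest. The bin densest in AGCT (114500500, 7.66 per 100 rebuilt bases) held 156 joins, and the bin at 114500000 held 421 with 5.21 motifs per 100. The bins poorest in AGCT, at 114499000 and 114499500 (1 and 2 per 100), held 53 and 160 joins. A relation over all bins was not tested. In the bins at 114500500 and 114501000, 69.4% and 77.8% of 30-base words occurred again in the core, against 3.40% at 114502000. Reads from such repeats are harder to place, and the part of this in the profile was not tested.

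**Figure D4:**
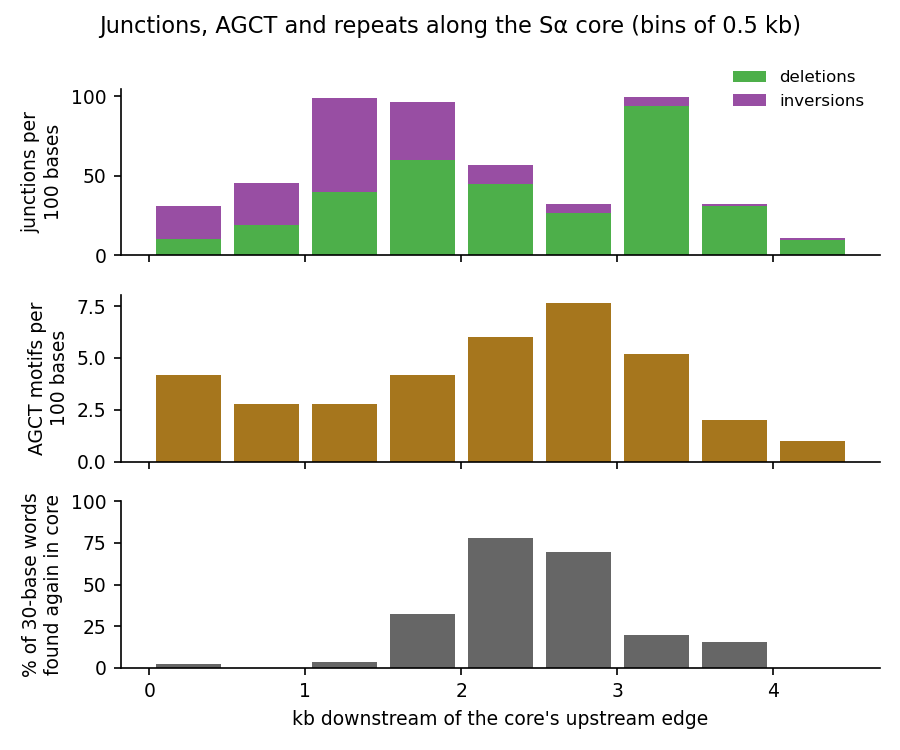
Joins per 100 rebuilt bases by orientation (top, all libraries), AGCT per 100 bases (middle) and the percentage of 30-base words found again in the core (bottom), in bins of 500 bp along the Sα core. All joins of a bin are divided by its rebuilt bases, only 422 of 500 at 114500000, which raises that bar. The bins 2 to 3 kb from the upstream edge hold the most AGCT and the most repeated words and fewer joins than those on either side.

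Most Sα joins used no or little homology. With anti-CD40+TGF-β, direct joins made up 30.1% from Sµ and 29.9% from Sγ3 in A150, and 28.6% from Sµ in WT. Overlaps of 1 to 3 bp made up 41.7% ± 4.76, 39.9% ± 1.71 and 44.3% ± 1.58, and insertions 24.5% ± 2.24, 21.7% ± 2.22 and 24.2% ± 2.01. The libraries of the 3 groups overlapped in each of these classes, except that overlaps of 1 to 3 bp were less frequent in every A150 Sγ3 library (37.9% to 41.5%) than in every WT Sµ library (42.6% to 45.6%), a difference that was not tested. Insertions were mostly short, with a median of 2 bp in each group and the longest at 27 bp from Sµ and 28 bp from Sγ3 in A150.

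Overlaps over 3 bp were more frequent from Sγ3 than from Sµ in A150 cells, without overlap of the libraries. They made up 6.02%, 2.66% and 2.19% of the Sα joins in A150 Sµ libraries (3.62% ± 2.09, SD, n = 3; 21 joins). In A150 Sγ3 libraries they made up 10.8%, 8.17%, 8.41% and 6.67% (8.51% ± 1.71, SD, n = 4; 146 joins). The difference of 4.89 points gave an exact permutation p of 0.0571 (adjusted 0.286 over 5 comparisons). For overlaps over 4 bp the difference was 2.27 points (exact permutation p = 0.171). Counting only overlaps whose bases all equalled the bait's commonest bases left 17 and 126 joins and a difference of 4.44 points (exact permutation p = 0.0571). Bases were compared position by position, so a read that lacked a bait base near its overlap could be left out as well. WT Sµ libraries had 4.26%, 4.08% and 0% (2.78% ± 2.41, SD, n = 3), and overlapped A150 Sµ. Of the single lengths from 1 to 5 bp, the A150 baits did not overlap at 1, 2 and 4 bp, which was not tested. Overlaps of 1 bp made up 22.2%, 22.9% and 28.5% from Sµ and 18.1% to 19.9% from Sγ3, and overlaps of 2 bp 8.33%, 12.2% and 11.7% from Sµ and 13.4% to 15.2% from Sγ3. Overlaps of 4 bp made up 1.85%, 0.53% and 1.46% from Sµ and 2.87% to 4.68% from Sγ3.

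A minority of the overlaps over 3 bp from Sγ3 held the AID motif. With anti-CD40+TGF-β, 42 of the 146 long overlaps from Sγ3 and 1 of the 21 from Sµ in A150 contained AGCT. The commonest were AGCT itself (14 joins) and AGCTGAG (8 joins), which both occur in the Sγ3 bait stretch shown above. Of the 5 AGCT of that stretch, 2 lie in its first 30 bases, at the primer, where no bait end joined to Sα was recorded. The Sγ3 stretch thus held 3 AGCT beyond the first bait end and the Sµ stretch 1, and the part of bait sequence in the difference was not tested. Over both stimulations, deletional joins from Sγ3 had more long overlaps than inversional joins of the same library in 6 of 6 libraries. The means were 11.9% against 5.63% (exact sign-flip p = 0.0313, adjusted 0.0938). In the 4 libraries with anti-CD40+TGF-β they were 10.6% against 5.95%. The other 2, with anti-CD40+IL4, had only 10 to 25 joins of each orientation.

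Against Sε and Sγ1 in the same library, long overlaps at Sα from Sγ3 did not differ beyond the spread (differences of -0.51 and -1.89 points over 7 libraries, exact sign-flip p = 0.828 and 0.422). From Sµ they had 2.28 points fewer than Sε in 4 of 4 libraries (exact sign-flip p = 0.125, the smallest possible). Against Sγ1 the difference from Sµ was -1.12 points, negative in 3 of 4 libraries (exact sign-flip p = 0.375).

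**Figure D5:**
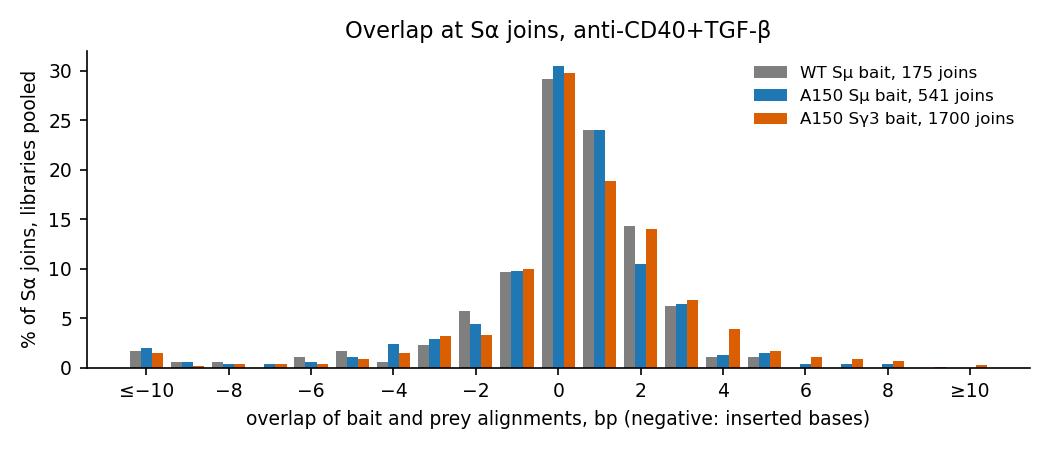
Length of the overlap between bait and prey alignments at Sα joins with anti-CD40+TGF-β (0 direct, above 0 overlap, below 0 inserted bases), as a percentage of all joins of a group with its libraries pooled. The 3 groups share a maximum at 0, and overlaps over 3 bp are more frequent from A150 Sγ3 (146 of 1700 joins against 21 of 541 from A150 Sµ).

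Insertions were more frequent with anti-CD40+IL4 in A150 cells read from Sγ3. In A150 Sγ3 libraries they made up 30.8%, 45.9% and 43.3% of Sα joins with anti-CD40+IL4 (40.0% ± 8.11, SD, n = 3) against 19.0% to 23.6% with anti-CD40+TGF-β, a difference of 18.3 points without overlap (exact permutation p = 0.0571, adjusted 0.286). Their median length was 4 bp, with 16 of 38 at 5 bp or more, against 64 of 371. With at least 30 prey and 50 bait bases required, anti-CD40+TGF-β minus anti-CD40+IL4 was -15.1 points and the libraries overlapped (exact permutation p = 0.171). Direct joins were fewer with anti-CD40+IL4, 8.11% to 23.3% against 27.7% to 31.3%, again without overlap (exact permutation p = 0.0571). These IL4 libraries had 26 to 37 Sα joins each, many of them outside the core.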

How the data were processed

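CSR-HTGTS junction tables were analysed as deposited, 1 per library. Per the labels and the submitters' processing notes, the authors aligned reads to mm9 with Bowtie2. The deposited tables list 1 junction per row, and the only unit used here is the count of junctions. Libraries were grouped by their titles, because the labels' target-locus tag follows the bait and not the genotype. Junctions on chromosome 12 from 114450000 to 114700000 were the IgH denominator, and it includes junctions near the bait. A join was deletional when prey and bait strands were equal. Overlap was the last bait read position minus the first prey read position plus 1. Percentages within Sα needed 10 or more Sα joins, which 12 libraries lacked. Totals per library ran from 31 to 96481 IgH junctions; reads carry no molecular identifiers, so Wilson intervals and limits for a count of 0 cover counting error only. No Sα row was marked as a duplicate or for low mapping quality, 21 were extra identical rows within a library, and 38 of 2509 distinct joins occurred in 2 libraries. Groups were compared over libraries with two-sided exact permutation tests (the smaller tail doubled), and values within a library with exact sign-flip tests, both tested on simulated data, with Benjamini-Hochberg adjustment per family (Python 3.11.15, numpy 2.4.6, pandas 2.3.3, scipy 1.17.1). Comparisons that would need 10 Sα joins in WT anti-CD40+IL4 libraries gave no value. Limits between S regions were the lowest 1000 bp bins between peaks of the pooled junctions, and the Sα core is the unbroken run of 500 bp bins around the fullest that each hold at least 5% of its joins. Named bins are the 3 with the most Sα joins, and single joins were printed by a rule (the most recurrent prey position, the longest overlap, the commonest insertion length of 5 bp or more) among A150 joins with anti-CD40+TGF-β whose prey alignment had no gap or mismatch and left 25 bases to print, with only deletions for the overlaps and insertions and ties going to the shorter insertion. For Sγ3 this left 2 joins at 7 bp and 1 at 5 bp. The members and comparisons were chosen with earlier results of these data known.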

Additional observations from a re-analysis of the deposited data

Results flagged for a closer look

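In A150 with the Sγ3 bait and anti-CD40+TGF-β, library 1 had an Sα share of 1.29%, apart from the other 3 libraries (0.914% to 0.977%). Its gap to the nearest of them was 0.833 of the whole range of the group. This was 1 of 7 sets of libraries checked for such a value, and chance gives one in about 1 of 20. Without it the comparisons of the Sα share kept their direction.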

How the results depend on the processing

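No value of the deletional percentage, the overlap over 3 bp or the position changed direction in the comparison of the A150 baits with anti-CD40+TGF-β under any alternative run. Of 217 values with 1 library left out, 194 kept their direction and side of the threshold and 22 reversed, and of 296 values under the other alternatives 257 kept them, 4 were weaker, 11 stronger and 24 reversed, nearly all in comparisons with anti-CD40+IL4 or between groups that overlapped. The cause was not tested in any of these.

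Counting absolute differences in the permutation test, an alternative chosen after seeing the data, gave unadjusted exact p = 0.0286 and none under 0.05 after adjustment for differences in share of 1.78, 0.997 and -0.800 points, in deletional percentage of -10.02 and -30.1, in position of 6055.8 and 780.25 bp, in overlap over 3 bp of 4.89, in insertions of -18.3 and in direct joins of 11.7 points. Same-numbered libraries did not deviate together (correlations -0.440 to 0.195), and with the replicate block 23 of 24 values kept their direction. The other, the difference in share between A150 baits with anti-CD40+IL4, turned to 0.0046 points with the block, which leaves out the unpaired Sµ library 4, and was the same without that library and with no block. The A150 minus WT share with the Sγ3 bait and anti-CD40+TGF-β turned positive in the core (0.220), without low mapping quality (0.207) and over all junctions (0.800). The difference in share change between baits was -0.787 in percentage points.

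In A150 Sγ3, anti-CD40+TGF-β minus anti-CD40+IL4 turned to 5.96 points for deletions in the downstream part of the core, and for overlap over 3 bp to -0.037 without insertions in the denominator and -7.28 in the core. The core value also leaves out the third anti-CD40+IL4 library, which had too few joins there. In A150 Sµ it turned to -301 bp for position and 6.52 points for insertions in the core, and for direct joins to -14.7 without insertions, -3.40 in deletions and -5.65 in the core. Between A150 baits with anti-CD40+IL4, position turned to 165 bp as a mean and 258 bp in the core, overlap to -1.30 over 4 bp and insertions to 24.7 in the core. These values and those of A150 Sµ above rest on 1 A150 Sµ library with anti-CD40+IL4. With anti-CD40+TGF-β, direct joins in deletions turned to 0.193 between baits, and insertions with at least 30 prey and 50 bait bases to -0.884 between genotypes. At Sα against Sγ1 from Sµ with anti-CD40+TGF-β alone, deletions turned to -0.620 and insertions to -0.462 points, and at Sα against Sε from Sγ3 overlap turned to 0.0016 and insertions to -0.266. Bait length against Sγ1 turned to -2.25 bp from Sµ and to -7.0 bp from Sγ3 with identical junctions counted once, and to -3.57 bp from Sγ3 without low mapping quality.

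With 1 library left out, ranges that crossed 0 or the threshold were as follows. The share between A150 baits with anti-CD40+IL4 ran from -0.0229 to 0.0046. Position ran from -6204.5 to 1979.8 bp there and from -449.5 to 136.5 bp between genotypes. Overlap over 3 bp ran from -3.41 to 6.20 there, from -2.46 to 7.16 between stimulations of A150 Sγ3 and from -0.546 to 1.58 between genotypes. Insertions ran from -0.987 to 1.45 between genotypes. Direct joins ran from -0.508 to 2.79 between stimulations of A150 Sµ, from -1.50 to 1.80 between baits and from -0.588 to 2.99 between genotypes. The log2 fold difference ran from -1.02 to -0.13 between baits and from -0.87 to 0.71 between genotypes. Position and overlap between A150 baits with anti-CD40+IL4, and direct joins between stimulations of A150 Sµ, rested on 1 A150 Sµ library with anti-CD40+IL4.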
